A study of Mus musculus with 16 samples.

Results

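The matrix metalloproteinases (MMPs), the ADAMTS proteinases with their ADAMTS-like relatives, and the tissue inhibitors of metalloproteinases (TIMPs) were followed in lungs of Fra-2 transgenic mice. Members were all genes whose platform symbol was Mmp, Adamts, Adamtsl or Timp followed by a number. The rule found 51 of 24306 genes, namely 23 MMPs, 19 ADAMTS, 5 ADAMTS-like genes and 4 TIMPs, measured by 103 array features. Of several features for a gene, the one with the highest mean level on the 16 arrays stood for it. The study compared lung mRNA of TG mice, which ectopically overexpress the AP-1 transcription factor Fra-2, with that of wild-type (WT) mice at 8 weeks of age. There were 4 TG females, 4 TG males, 4 WT females and 4 WT males, each on 1 single-colour Agilent array of RNA from homogenized right lung. The line came from a mixed BL6CBA background and had been back-crossed to C57BL6/J, and TG and WT mice were littermates kept free of specific pathogens, and the labels name no treatment. The promoter that drives the transgene is not given in the sources used here, and no label names an animal, so each array was counted as 1 mouse and p-values measure the spread between these samples.

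MMPs are zinc-dependent proteinases that are made as inactive precursors and cleave collagens, elastin, other matrix proteins and many soluble proteins. ADAMTS proteinases are secreted relatives with thrombospondin repeats, some of which cleave proteoglycans while others process procollagens, and ADAMTS-like proteins share the repeats without the catalytic domain. TIMPs bind and block the active site of MMPs and, in the case of TIMP-3, of several ADAMTS. In lung these families are best known for remodelling of airways, vessels and alveolar walls, and several MMP genes are textbook targets of AP-1.

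Fra-2 binds DNA as part of AP-1 dimers at the motif TGACTCA, whose reverse complement is TGAGTCA, so the promoter windows of the members were searched for either word on both strands. Each window held 300 bases, from 250 before to 50 after the gene start, taken from RefSeq on GRCm38.p6. Windows were at hand for 36 of the 51 members, and 7 of these 36 (19.4%) held the motif, against 5.95% of the 27025 genes with a window. The 15 members without a window, Mmp2 and Mmp9 among them, were not searched. All 7 members with the motif lay among the 10 Mmp genes that neighbour each other on chromosome 9, in the order Mmp13, Mmp12, Mmp1b, Mmp3, Mmp1a, Mmp10, Mmp8, Mmp27, Mmp20 and Mmp7. The same 7 also held the word TATAAA, which 9.77% of genes had, while 0.829% of genes had both. The 87 bases around the motif are shown because they carry what these neighbours share, with the AP-1 motif and the TATAAA word in capitals, 5′ to 3′ on the gene's own strand. Mmp13 is the stretch chr9:7272459-7272545 (+), Mmp12 chr9:7347310-7347396 (+), Mmp1b chr9:7388053-7388139 (-) and Mmp3 chr9:7445756-7445842 (+). Mmp1a is chr9:7464048-7464134 (+), Mmp10 chr9:7502259-7502345 (+) and Mmp7 chr9:7692007-7692093 (+).
Mmp13: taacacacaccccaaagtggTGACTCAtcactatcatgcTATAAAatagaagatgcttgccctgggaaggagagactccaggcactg
Mmp12: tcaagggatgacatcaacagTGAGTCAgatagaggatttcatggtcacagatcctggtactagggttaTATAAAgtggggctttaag
Mmp1b: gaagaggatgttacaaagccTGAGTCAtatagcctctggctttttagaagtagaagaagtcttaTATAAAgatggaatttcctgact
Mmp3: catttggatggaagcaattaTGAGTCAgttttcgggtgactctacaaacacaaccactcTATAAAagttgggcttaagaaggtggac
Mmp1a: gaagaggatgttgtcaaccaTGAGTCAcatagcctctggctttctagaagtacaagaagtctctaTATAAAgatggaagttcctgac
Mmp10: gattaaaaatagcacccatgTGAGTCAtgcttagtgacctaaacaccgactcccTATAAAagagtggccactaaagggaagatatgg
Mmp7: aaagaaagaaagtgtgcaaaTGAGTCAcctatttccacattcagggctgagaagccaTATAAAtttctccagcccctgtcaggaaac

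The motif began 35 bases before the start in Mmp13, 44 in Mmp12, 46 in Mmp3, 63 in both Mmp10 and Mmp7, 73 in Mmp1a and 93 in Mmp1b. In no printed stretch did the 2 words overlap. Mmp12 and Mmp7 had a further RefSeq start each, whose window held neither word. The windows of Mmp8, Mmp27 and Mmp20 had no AP-1 motif, and that of Mmp20 held TATAAA alone. A match is a run of letters in a window and not a measured site.

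In the lungs none of the 7 motif-bearing genes passed the test of TG against WT over all mice. Their log2 fold changes, always TG minus WT, ran between -0.42 for Mmp7, an epithelial matrilysin, and 0.76 for Mmp12, the macrophage metalloelastase, with a median of 0.05. The only one of the 10 neighbours to pass was Mmp8, the neutrophil collagenase, at -1.03, and its window held no motif. Over all genes, 14.1% of the 1084 with the motif passed and 13.1% of the 18133 with a window but no motif.

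**Figure D1:**
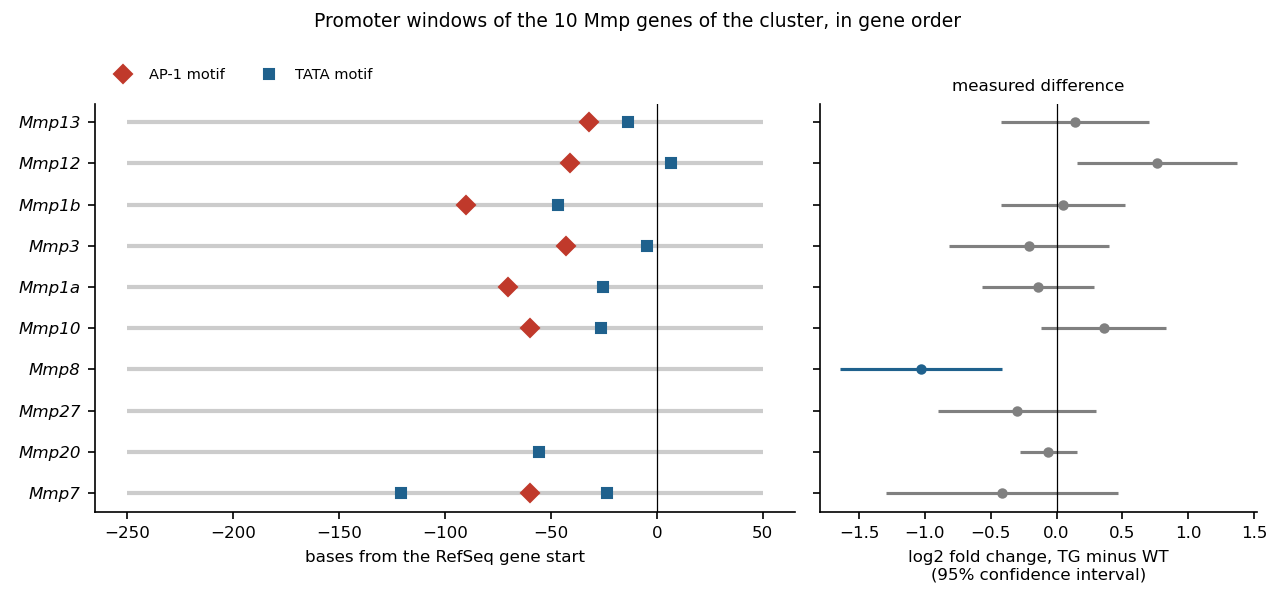
Left, positions of the AP-1 motif (red diamonds) and the TATA motif (blue squares) in the promoter window of the 10 neighbouring Mmp genes, in bases from the RefSeq start; for Mmp12 and Mmp7 the start with the motif is drawn. Right, the log2 fold change of TG minus WT over all mice with its 95% confidence interval. Mmp8 at -1.03 is the only gene in blue, called lower, and the 7 genes with a diamond, most of them dim, are grey, not called.

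The deposited values were log2 intensities between 1.77 and 15.9996. Fosl2, which encodes Fra-2, had 2 features. The dimmer one lay between 6.56 and 10.66 in TG lungs and between 2.39 and 4.91 in WT lungs (a difference of 4.77 on the log2 scale, limma adjusted p = 2.1e-05), while the brighter one differed by -0.14. Markers of lung epithelium were present in every lung, with a mean over 10 genes of 14.02 to 14.26 in both genotypes and no gene called. Sftpc, Sftpb, Sftpa1, Sftpd, Ager and Scgb1a1 lay at 15.29 or more in every lung, close to the highest value of 15.9996. So near the top of the scale a difference between the genotypes can be hidden. Xist, Eif2s3y and Uty each split males from females without overlap, whereas Kdm5d on its brightest feature did not (4.34 to 7.15 in females and 4.35 to 6.37 in males). Xist, Eif2s3y and Uty were not called between the genotypes over all mice, but Eif2s3y was in females (1.30, adjusted p = 0.0149, limma). Uty, a gene of the Y chromosome, gave 2.66 to 4.09 in females, and this was used as a mark of low signal. It is the lowest such mark, since Eif2s3y, also on the Y chromosome, reached 6.17 in females. On the first principal component TG female replicates 1 and 4 stood apart from all other arrays (-89.5 and -76.6, against -30.6 to 45.6), and WT male replicate 1, at -11.5, stood apart from the other WT arrays (27.1 to 45.6). Calls were made again without these 3 arrays. Of the marker lists not set beside a member, all 5 NK cell markers, 2 of 3 of B cells, 2 of 6 of eosinophils and Cd8a of 5 T cell markers were lower in TG lungs. Krt14 (3.71) and Trp63 (0.75) of 5 airway basal markers, Clca1 (5.96) of 5 goblet cell markers, Kdr of 6 endothelial and Msln of 5 mesothelial markers were higher, and none of 6 smooth muscle or 8 interstitial macrophage and monocyte markers was called. Their part in the values of the members was not tested. In whole lung RNA, fewer cells of a type and less RNA per cell cannot be told apart.

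Over all mice, Mmp14, Timp2 and Adamts1 were higher in TG lungs, and Adamts14, Mmp9 and Mmp8 were lower. These 6 genes were called by limma at an adjusted p under 0.05 (Benjamini-Hochberg over all 24306 genes), and the other 45 members were not. At an unadjusted p under 0.05 there were 11 members (21.6%), against 28.1% of genes. With a minimum of 2-fold, 3 members (5.88%) were called, Adamts14, Mmp9 and Mmp8, against 2.63% of genes. The 6 are 11.8% of the members, and 13.1% of all genes were called, so the share was near the background and is no result about the families. Without TG female replicate 4, and likewise without WT male replicate 4, the count was 3, and without the 3 arrays that stood apart it was 4, of which 3 were among the 6. In each direction 3 members (5.88%) passed, against 6.05% of genes higher and 7.08% lower in TG lungs. Mmp14 was the only member whose TG and WT mice did not overlap, and 1.75% of all genes separated the mice in this way. The median log2 fold change of the members was 0.05, and that of all genes was -0.03. Of the 45 members not called, 39 (86.7%) had a 95% confidence interval within 1 log2 unit of 0 on both sides, against 88.8% of the genes not called. Both genotypes gave 13 members a mean under 4.09, the highest value of Uty in females, and none of these was called. They were Mmp1a, Mmp1b, Mmp16, Mmp20, Mmp21, Mmp24, Mmp25, Mmp27, Adamts3, Adamts13, Adamts16, Adamts19 and Adamts20. At levels this low a narrow interval does not show that a member was unchanged. Of the 32 other members not called, 26 had an interval within 1 log2 unit of 0 on both sides.

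**Figure D2:**
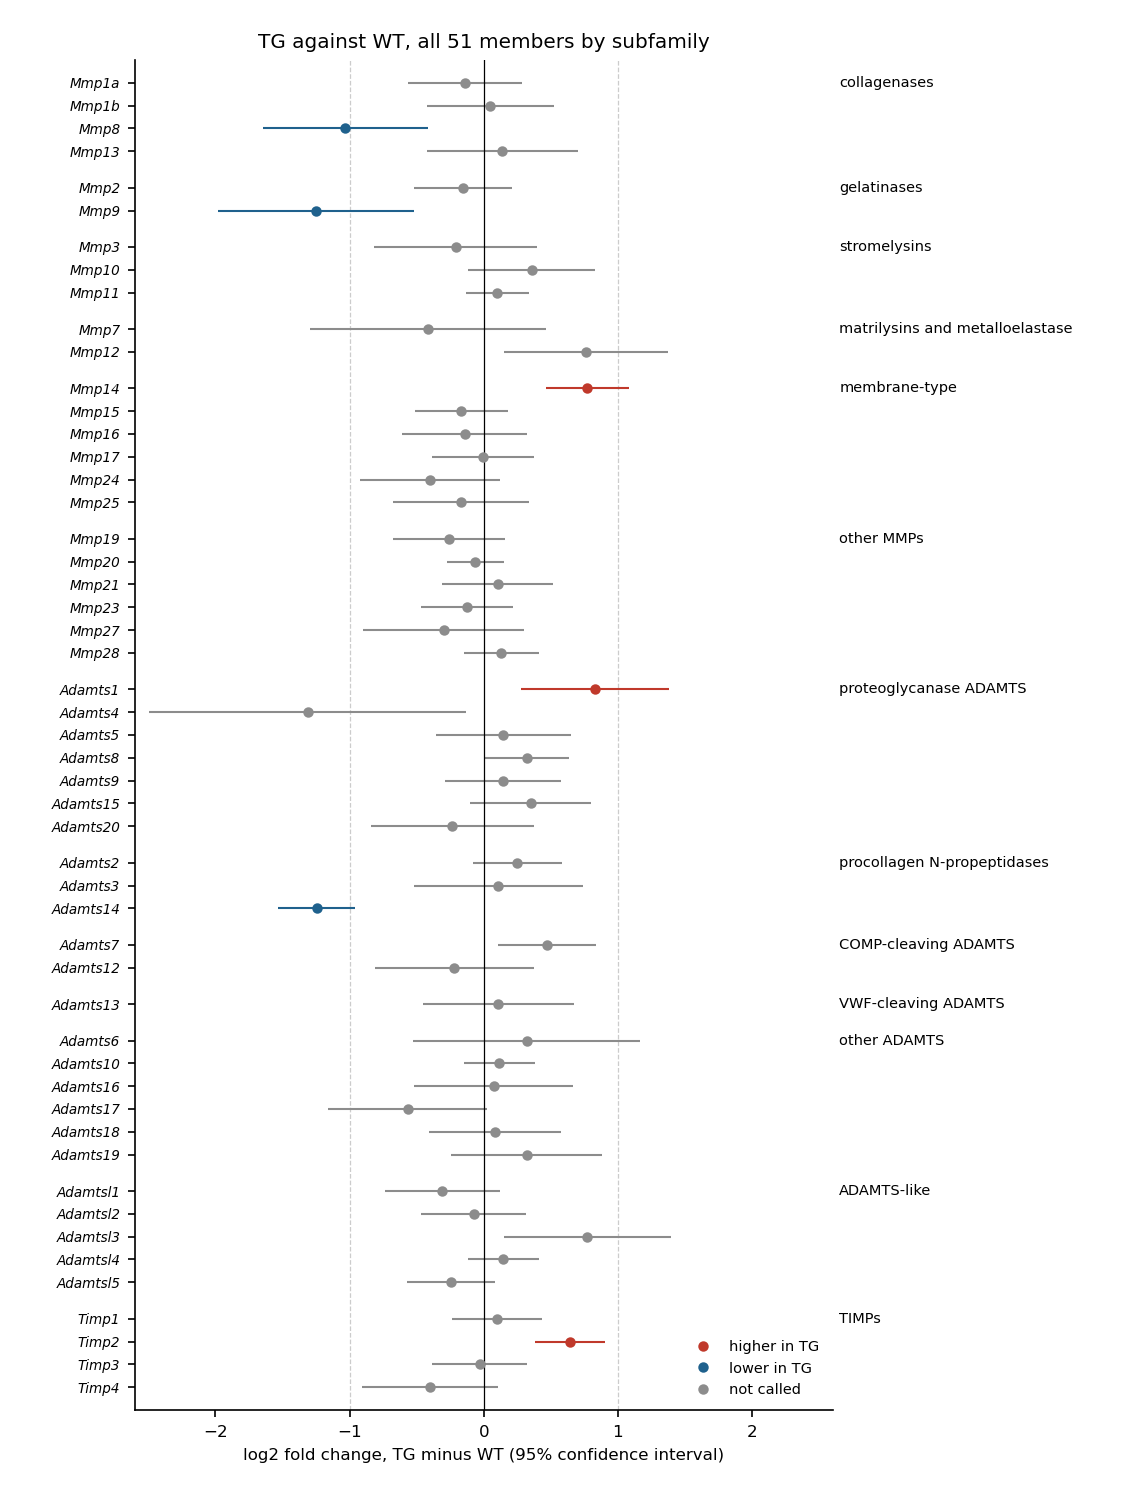
Log2 fold change of TG minus WT for each of the 51 members, grouped by subfamily, with its 95% confidence interval over 8 mice a genotype; dashed lines mark a 2-fold change. The 3 red genes, Mmp14, Adamts1 and Timp2, lie right of 0, the 3 blue genes, Mmp8, Mmp9 and Adamts14, lie left of it, and most grey intervals cross 0.

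Mmp14 encodes MT1-MMP, the membrane-type collagenase that activates pro-MMP-2 at the cell surface, and TIMP-2 is the adaptor that docks pro-MMP-2 to it. Mmp14 had its lowest, median and highest log2 level at 6.53, 6.80 and 7.11 in TG lungs, against 5.56, 5.95 and 6.52 in WT lungs. No WT mouse reached the lowest TG mouse. This was a log2 fold change of 0.77 ± 0.14 (SE, adjusted p = 0.00391, limma), a level 1.71-fold higher, and it was called under each of the 31 alternatives run. Mmp14 had only 1 feature, so its call cannot be compared between features. Its WT mean of 6.06 lay under 6.17, the highest value in females of Eif2s3y on the Y chromosome. Of the 6 membrane-type genes Mmp14 alone was called, and the other five, Mmp15, Mmp16, Mmp17, Mmp24 and Mmp25, had log2 fold changes between -0.40 and 0.00 (median of the 6, -0.15).

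Timp2 followed on its brightest feature, with a lowest, median and highest level of 14.93, 15.18 and 15.44 in TG lungs, against 14.15, 14.51 and 15.10 in WT lungs. The values lay near the top of the scale, 5 of 8 TG mice were above all WT mice, and WT male replicate 1 reached into the TG range. Timp2 had a log2 fold change of 0.64 ± 0.12 (SE, adjusted p = 0.00433, limma). A second feature of Timp2 that names the same transcript did not show it, at 10.39, 10.83 and 11.19 in TG lungs against 10.48, 11.10 and 11.27 in WT lungs, a difference of -0.19 on the log2 scale (limma, adjusted p = 0.360 over all features). When both features were averaged the difference was 0.23 and was not called (adjusted p = 0.119).

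Mmp2, gelatinase A and the substrate of this pair, was not called. Its levels were 9.19, 9.61 and 10.40 in TG lungs and 9.10, 9.96 and 10.30 in WT lungs, overlapping over nearly the whole range (log2 fold change -0.16, 95% confidence interval -0.52 to 0.21, adjusted p = 0.599, limma). Reck, a membrane-anchored inhibitor of MMPs outside the rule, was lower at 10.28 ± 0.34 in TG lungs and 10.90 ± 0.21 in WT lungs (SD, n = 8 each). Fibroblast markers, whose cells are known to express Mmp14, Timp2 and Mmp2, were called in both directions. Of 9, Col1a2 was higher and Lum lower, and their mean level was 11.27 to 11.87 in TG lungs and 11.57 to 11.72 in WT lungs.

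**Figure D3:**
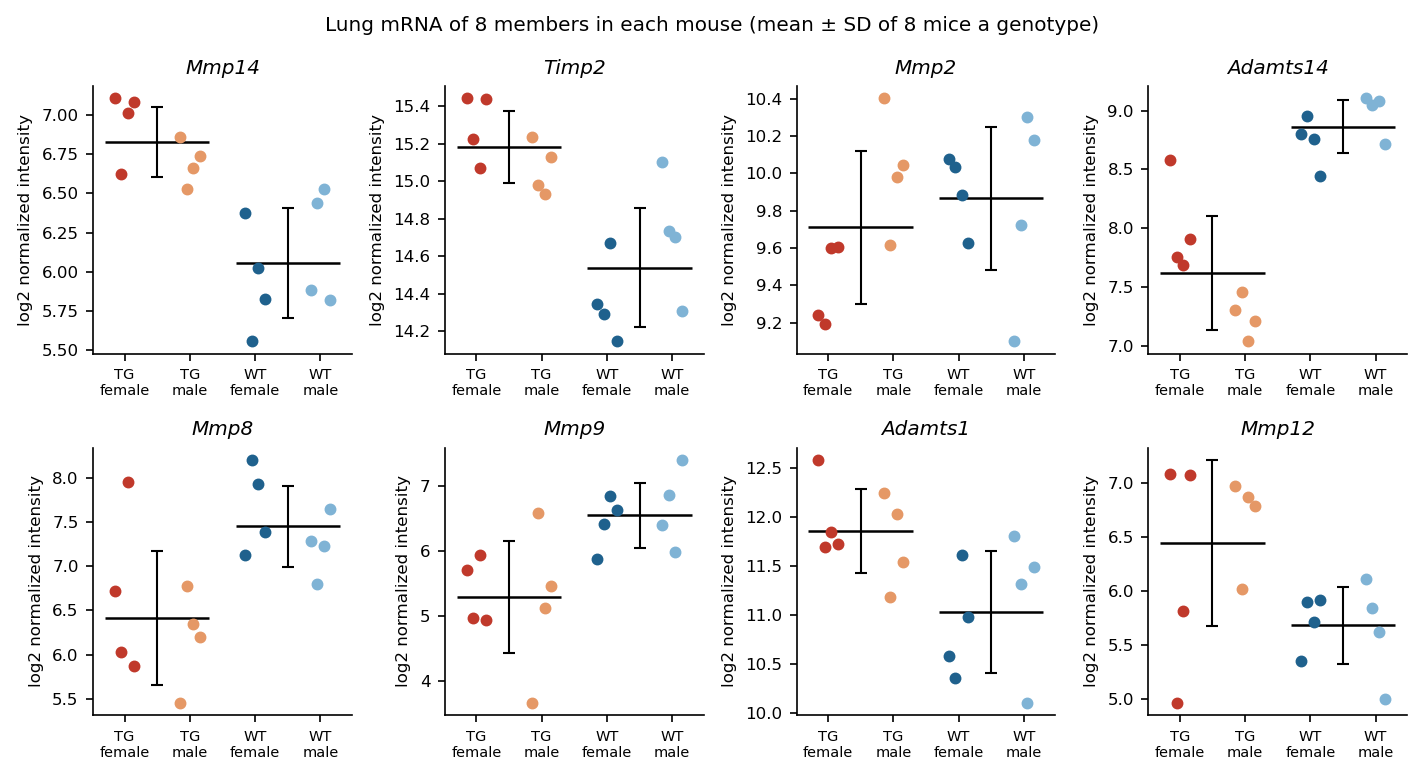
Log2 normalized intensity of 8 members in each of the 16 mice; points are mice by genotype and sex, and bars are the mean ± SD of 8 mice a genotype. Mmp14 separates all TG from all WT mice, Timp2 and Adamts14 nearly do, and Mmp2 overlaps throughout; each panel has its own vertical axis, which does not start at 0.

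Adamts14, which with Adamts2 and Adamts3 forms the group that removes the N-terminal propeptides of fibrillar procollagens, was lower in TG lungs with the smallest p of all members. Levels were 7.04, 7.57 and 8.58 in TG lungs, against 8.44, 8.88 and 9.10 in WT lungs. The only overlap was between TG female replicate 1 at 8.58 and WT female replicate 4 at 8.44. The log2 fold change was -1.25 ± 0.14 (SE, adjusted p = 6.8e-05, limma), that is 2.37-fold lower, and the call held under all 32 alternatives.

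A second, dimmer feature of Adamts14 separated all mice, at 3.30, 4.99 and 6.46 in TG lungs against 6.60, 6.79 and 7.08 in WT lungs. Its log2 fold change was -1.81 ± 0.30 (SE, adjusted p = 0.00191 by limma over all features). Neither Adamts2 nor Adamts3 was called. Adamts2, the enzyme best known for type I procollagen, was at 10.91 ± 0.31 in TG lungs and 10.66 ± 0.34 in WT lungs (SD, n = 8 each), and Adamts3 was under the highest value of Uty in females, at 3.80 ± 0.66 in TG lungs and 3.69 ± 0.56 in WT lungs (SD, n = 8 each). Their intervals reached from -0.08 to 0.58 for Adamts2 and from -0.52 to 0.74 for Adamts3, both above the whole interval of Adamts14, which was -1.53 to -0.96.

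Mmp9 and Mmp8, gelatinase B and the neutrophil collagenase, are both stored in granules of neutrophils, and both were lower in TG lungs. Mmp9 was at 3.67, 5.30 and 6.59 in TG lungs, against 5.88, 6.52 and 7.41 in WT lungs. Of the 8 TG mice 6 lay below all WT mice. The log2 fold change was -1.25 ± 0.34 (SE, adjusted p = 0.0277, limma), and a second feature, at -1.05, was called as well (adjusted p = 0.0196 over all features). Mmp8 was at 5.45, 6.27 and 7.95 in TG lungs, against 6.79, 7.33 and 8.20 in WT lungs. TG female replicate 3 alone stood inside the WT range. Mmp8 had a log2 fold change of -1.03 ± 0.29 (SE, adjusted p = 0.0298, limma).

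Of 9 neutrophil markers outside the rule, Retnlg (-1.78), S100a8 (-1.45) and S100a9 (-1.11) were called lower, Csf3r (0.49) was called higher, and 5 were not called. The 5 were Ly6g (-0.55), Cxcr2 (-0.53), Camp (-0.29), Ngp (-0.02) and Ltf (0.54). The mean level of the 9 overlapped between the genotypes, at 8.58 to 10.56 in TG lungs and 9.65 to 10.30 in WT lungs. Their part in the result was not tested. The call of Mmp9 was lost without TG female replicate 4, WT female replicate 3 or 4, or WT male replicate 2 or 4 (adjusted p = 0.0517 to 0.0601, limma), and without the 3 arrays that stood apart (-1.26, adjusted p = 0.0838). That of Mmp8 was lost without TG female replicate 2 or 4, TG male replicate 1, WT female replicate 2 or 3, or WT male replicate 3 or 4 (adjusted p = 0.0524 to 0.0641), and without the 3 arrays that stood apart (-0.85, adjusted p = 0.134).

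Mmp12, the metalloelastase of macrophages, had a positive difference that did not pass. It was at 4.97, 6.83 and 7.08 in TG lungs, against 5.01, 5.78 and 6.11 in WT lungs. Of the TG mice 5 lay above all WT mice, whereas TG female replicate 2, at 4.97, lay below them all. The log2 fold change was 0.76, with a 95% confidence interval of 0.15 to 1.37 (adjusted p = 0.0918, limma), and without TG female replicate 2 it was 0.97 and was called (adjusted p = 0.0162). Without the 3 arrays that stood apart it was 0.42 (adjusted p = 0.252). The 2 dimmer features of Mmp12 were at 0.28 and 0.36, neither called. Of 9 markers of alveolar macrophages, Marco (-2.67) and Siglecf (-1.23) were lower and none was higher, with a mean level of 9.83 to 10.59 in TG lungs and 10.14 to 11.05 in WT lungs. Their part in the values of Mmp12 was not tested.

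Among the remaining MMPs none was called over all mice. Mmp3 and Mmp10, the stromelysins that cleave proteoglycans and glycoproteins and activate other pro-MMPs, and Mmp11, which furin activates inside the cell, had log2 fold changes of -0.21, 0.36 and 0.10. The other collagenases, Mmp1a, Mmp1b and Mmp13, lay between -0.14 and 0.14. The 6 genes of no subfamily, Mmp19, Mmp20, Mmp21, Mmp23, Mmp27 and Mmp28, lay between -0.30 for Mmp27 and 0.13 for Mmp28. Over the 23 MMPs the median was -0.14.

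Of the 7 proteoglycanase ADAMTS, which cleave aggrecan and versican, only Adamts1 was called. It was at 11.19, 11.79 and 12.59 in TG lungs, against 10.10, 11.15 and 11.80 in WT lungs. Both ranges overlapped, with 4 TG mice above all WT mice. The log2 fold change was 0.83 ± 0.26 (SE, adjusted p = 0.0479, limma) at the edge of the threshold, and 21 of 31 alternatives ended the call. It remained called in the fits without TG male replicate 2, WT female replicate 3 or WT male replicate 1, and without any other single mouse the adjusted p was 0.0508 to 0.0982. Without the 3 arrays that stood apart it was 0.84 and not called (adjusted p = 0.0859).

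Adamts4, an aggrecanase, had the most negative value of the 51 members at -1.31, with a 95% confidence interval of -2.49 to -0.13 (adjusted p = 0.132, limma). Its levels were 2.81, 3.56 and 5.82 in TG lungs and 2.95, 5.21 and 6.92 in WT lungs, a wide spread in both genotypes, and its 2 other features were at 0.18 and -0.14. Adamts5, the other main aggrecanase, was at 0.15 and Adamts9 at 0.14. Adamts8 and Adamts15, neighbours on chromosome 9, were at 0.32 and 0.35, and Adamts20 was at -0.23. The median of the 7 was 0.15.

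No call was made among the ADAMTS of other roles. Adamts7 and Adamts12, which cleave the cartilage protein COMP, were at 0.47 (adjusted p = 0.0842, limma) and -0.22. Adamts13, the protease of von Willebrand factor, was at 0.11 on a feature under the highest value of Uty in females. Adamts6, Adamts10, Adamts16, Adamts17, Adamts18 and Adamts19 lay between -0.57 for Adamts17 and 0.32 for Adamts6 and Adamts19. The 5 ADAMTS-like genes, which bind fibrillin microfibrils in the cases studied, lay between -0.31 for Adamtsl1 and 0.77 for Adamtsl3. Adamtsl3 was at 4.50 ± 0.62 in TG lungs and 3.73 ± 0.60 in WT lungs (SD, n = 8 each, adjusted p = 0.0958, limma).

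Timp1, Timp3 and Timp4 were not called. Timp1, the inhibitor that inflammatory signals induce, was at 8.995, 9.74 and 10.27 in TG lungs and 9.22, 9.62 and 10.06 in WT lungs. Timp3, which is bound to the matrix, was at 13.48, 14.15 and 14.39 in TG lungs and 13.47, 14.07 and 14.75 in WT lungs. Timp4, an inhibitor best known from heart and fat, was at 5.25, 6.18 and 7.07 in TG lungs and 6.21, 6.496 and 6.91 in WT lungs. The ranges of the genotypes overlapped for each of them, and the log2 fold changes were 0.10 for Timp1, -0.03 for Timp3 and -0.40 for Timp4 (adjusted p = 0.733, 0.926 and 0.297, limma).

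Timp4 depended on a pair of arrays. Of the TG mice 5 lay below all WT mice, while TG female replicates 1 and 4 had the highest TG levels, 6.78 and 7.07. Without these 2 mice the log2 fold change was -0.76 (adjusted p = 0.0200, limma), and without the 3 arrays that stood apart it was -0.72 (adjusted p = 0.0209). Over all mice the 5 adipocyte markers were lower in TG lungs, with log2 fold changes of -4.54 (Adipoq) to -1.84 (Cidec) in females, all called, and of -1.06 (Plin1) to 0.01 (Adipoq) in males, none called. Timp4 itself was at -0.33 in females and -0.47 in males. The value in females includes TG female replicates 1 and 4. TG female replicates 2 and 3 were at 5.25 and 5.68, under the lowest WT female at 6.21. The markers had a mean level of 5.79 to 8.81 in TG lungs and 7.69 to 10.69 in WT lungs, and of 5 heart muscle markers Nppa (-3.76) was lower, with a mean level of 7.54 to 11.27 in TG lungs and 8.88 to 12.50 in WT lungs. Their part in the values of Timp4 was not tested.

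Features of the same gene did not always give the same direction. Of the 51 members 30 had several features, and the features of 8 members shared a sign while those of 22 did not. The 8 were Mmp7, Mmp9, Mmp12, Mmp28, Adamts13, Adamts14, Adamts16 and Adamtsl5. The 22 were Mmp1b, Mmp16, Mmp17, Mmp19, Adamts2, Adamts3, Adamts4, Adamts5, Adamts6, Adamts9, Adamts10, Adamts12, Adamts17, Adamts18, Adamts19, Adamts20, Adamtsl1, Adamtsl3, Adamtsl4, Timp2, Timp3 and Timp4. Some of these differed in sign only through dim features, where a sign says little. Adamts2 gave 0.25 at a TG mean of 10.91, and -0.11 and -0.01 at TG means of 3.44 and 3.34. All features of Mmp1b and Mmp16 had means under the 4.09 of Uty in females. The share over all genes with several features is not given here. Tested on their own, 9 of the 103 features were called (8.74%), against 11.3% of all features with a symbol, and 4 of the 9 did not stand for their gene. These were the second features of Adamts14 and Mmp9 described above, a feature of Timp3 and one of Adamts17.

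The second feature of Timp3, at 13.32, 13.75 and 14.20 in TG lungs against 12.86, 13.21 and 13.79 in WT lungs, gave 0.46 (limma, adjusted p = 0.0372 over all features), where the brightest gave -0.03. In Adamts17 the 4 features ran both ways. The brighter pair were at -0.57 and -0.96, neither called, and the dimmest, at 3.001, 3.67 and 4.62 in TG lungs against 2.72, 3.08 and 3.52 in WT lungs, gave 0.75 (adjusted p = 0.0404 over all features). Timp4 had -0.40, -0.62 (adjusted p = 0.0570 over all features) and 0.20 on its 3 features. Adamts9, with 4 features, ran from -1.20 on the dimmest to 0.48, and none was called.

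**Figure D4:**
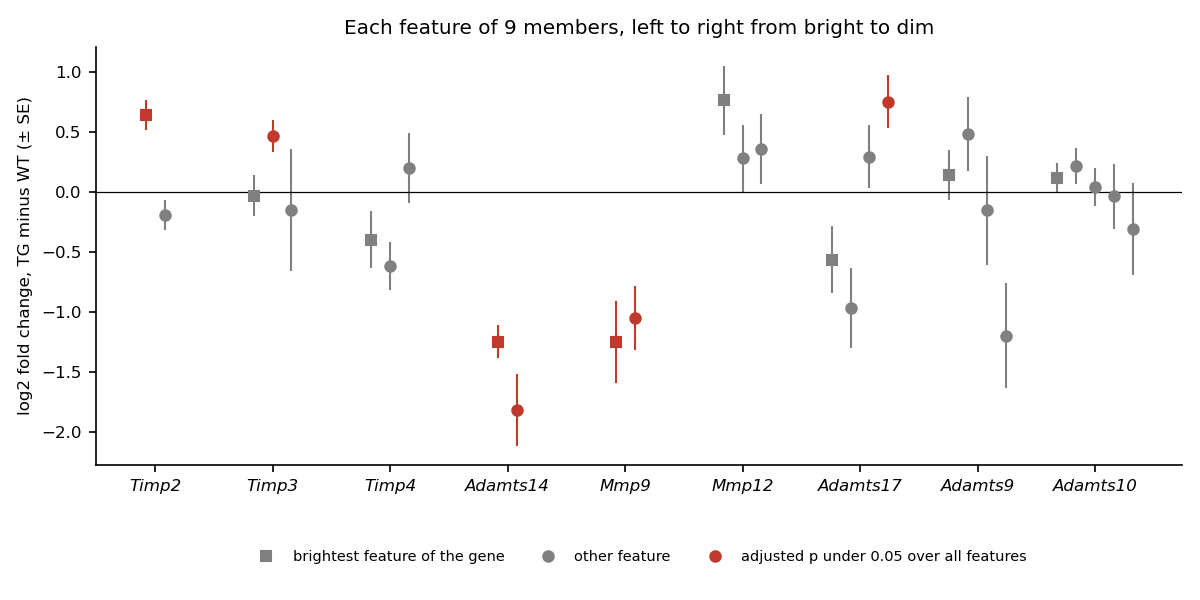
Log2 fold change of TG minus WT, with its SE over 8 mice a genotype, of every feature of 9 members, bright to dim within a gene; squares stand for the gene and red marks an adjusted p under 0.05 over all features. The features of Adamts14 and Mmp9 lie together below 0, those of Timp2, Timp3, Timp4 and Adamts17 fall on both sides of it.

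In females alone, 5 members were called, Mmp10, Mmp14, Timp2 and Adamts15 higher and Adamts14 lower in TG lungs. They are 9.8% of the members, and 16.1% of all genes were called in females (7.15% higher and 9.0% lower). In males only Adamts14 was called, 1.96% of the members against 0.646% of genes. Adamts14 differed by -0.76 in females (adjusted p = 0.0172, limma) and by -1.74 in males (adjusted p = 0.000257), and its call in females was lost without WT female replicate 2 (adjusted p = 0.0541). For Mmp14 the values were 1.01 in females (adjusted p = 0.00614) and 0.53 in males (adjusted p = 0.357). Timp2 gave 0.93 in females (adjusted p = 0.00433) and 0.35 in males (adjusted p = 0.519). Without the 3 arrays that stood apart the call of Mmp14 in females was lost (0.87, adjusted p = 0.0715), and that of Timp2 was not (0.78, adjusted p = 0.0373). Without TG female replicates 1 and 4 alone both were lost (0.87 and 0.78, adjusted p = 0.104 and 0.0822), and of the 5 calls in females 1, that of Adamts14, was left.

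Mmp10, stromelysin 2, had 5.45, 5.43, 4.22 and 6.05 in the 4 TG females, against 4.02, 4.47, 3.71 and 4.34 in the 4 WT females. All TG females but replicate 3 lay above the WT females (log2 fold change 1.16, adjusted p = 0.0230, limma). In males it had 4.37, 3.95, 3.95 and 4.30 in TG lungs, against 4.04, 4.66, 4.79 and 4.85 in WT lungs. The log2 fold change in males, -0.44, was not called. Mmp10 was dim, with means of 4.13 in WT females and 4.14 in TG males. These lay close to 4.09, the highest value of Uty in females, and no mouse reached the 6.17 of Eif2s3y in females. The call in females was lost without TG female replicate 1 or 4 or WT female replicate 1 or 3 (adjusted p = 0.0603 to 0.0738), and without both TG female replicates 1 and 4 the value was 0.69 (adjusted p = 0.281), as it was without the 3 arrays that stood apart (adjusted p = 0.210).

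Adamts15, another proteoglycanase, had 11.48, 11.21, 11.28 and 11.14 in the TG females, against 10.20, 9.85, 11.14 and 10.26 in the WT females. TG female replicate 4 and WT female replicate 3 were at the same level, and the other females did not overlap (log2 fold change 0.91, adjusted p = 0.0491, limma). TG males had 10.10, 10.48, 11.38 and 9.91 and WT males 10.84, 10.87, 10.56 and 10.45, and the difference of -0.21 was not called. The call in females remained in 3 of the 16 fits that left out a mouse, those without TG male replicate 3, TG male replicate 4 or WT female replicate 3, and the adjusted p was 0.0522 to 0.145 in the other 13. Without the 3 arrays that stood apart it was 0.88 and not called (adjusted p = 0.227).

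The difference between the sexes itself was called for no member and for no gene (0.0% of 24306, limma). At an unadjusted p under 0.05 there were 7 members (13.7%), against 12.9% of all genes, and the smallest adjusted p of a member was 0.330. The 7 were Mmp10, Adamts14, Adamts15, Adamtsl2, Timp2, Adamtsl4 and Mmp17. Of the 51 members, 14 were higher in TG lungs of both sexes, 17 lower in both, and 20 had opposite signs, and 33 had the larger difference in females. The shares over all genes are not given here, so these counts are no result about the members. Over all genes, 16.1% were called in females and 0.646% in males.

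**Figure D5:**
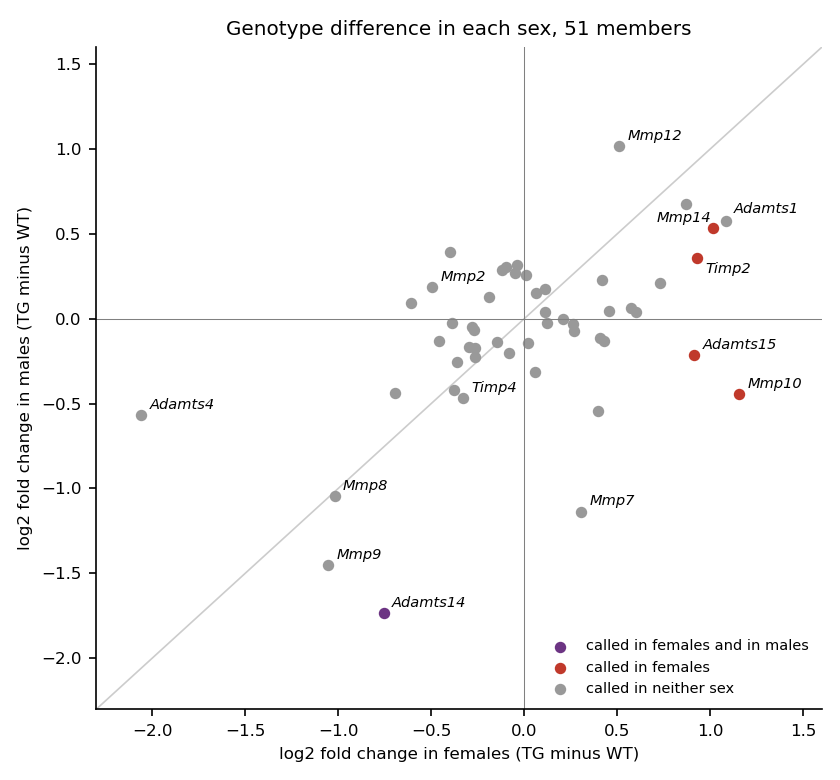
Log2 fold change of TG minus WT in males against that in females for the 51 members (4 mice a group), with the line of equal change. Adamts14, in purple, was called in both sexes; Mmp14, Timp2, Adamts15 and Mmp10, in red, were called in females only, and the last pair lies below 0 in males.

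Genes that act with these families but lie outside the rule were read from lists. Of 16 activators of pro-MMPs, 3 were higher in TG lungs, the convertase Pcsk5 (0.72), the tryptase Tpsb2 (0.97) and the urokinase Plau (0.51), and the mast cell chymase Cma1 was lower (-1.94). Cma1 was at 5.47 ± 0.47 in TG lungs and 7.41 ± 0.31 in WT lungs (SD, n = 8 each, adjusted p = 2.2e-05, limma). Of 6 mast cell markers, 3 were lower, Cma1 among them, and none was called higher. The other 3, Kit (0.33), Fcer1a (-0.58) and Mcpt4 (-0.93), were not called. Tpsb2, a mast cell tryptase that was higher, was not on this list. The mean level of the 6 was 4.98 to 5.91 in TG lungs and 5.90 to 7.25 in WT lungs. Their part in the value of Cma1 was not tested.

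Of 8 genes listed as inhibitors other than TIMPs, 3 were lower and none was higher. These were Reck (-0.62), the alpha-2-macroglobulin relative Pzp (-0.99) and the testican Spock2 (-0.40), and the median of the 8 was -0.27. The list took in the testicans as a family, and whether Spock2 itself inhibits MMPs was not tested. Among 8 inducers and surface partners, Lrp1, an endocytic receptor that clears MMPs and TIMPs, was higher (0.45), and Cd44 (-0.38), which docks Mmp9 at the cell surface, and the tetraspanin Tspan8 (-0.44) were lower. Of 13 ADAM proteinases, the membrane-bound sheddases and their relatives, Adam15 (1.05), Adam11 (0.50) and Adam10 (0.36) were higher and none was lower. Adam15 was at 14.07 ± 0.30 in TG lungs and 13.02 ± 0.31 in WT lungs (SD, n = 8 each).

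Of 12 proteoglycan and glycoprotein substrates, fibronectin (Fn1, 0.71) was higher and the small proteoglycan lumican (Lum, -1.16) lower. Of 14 fibrillin and microfibril partners of the ADAMTS-like proteins, Fbln2 (1.04), Thsd4 (0.51), Ltbp2 (0.47) and Ltbp1 (0.46) were higher and Mfap5 (-0.54) lower. Of 9 cysteine and other elastolytic proteinases, cathepsin S (Ctss, -0.65) was lower and none was higher. Among the 7 AP-1 subunits, Fos (-1.32) and Fosb (-1.76) were lower and none was higher on the brightest feature of each gene. Against the 13.1% of genes called, the shares in these lists ran between 1 of 9 and 3 of 8, and no list was tested as a set.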

How the data were processed

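Lung RNA of 16 mice was analysed on single-colour Agilent arrays. The deposited table holds log2 values, made by the authors with limma through a background correction and quantile normalization, 1 column per array, all of which were used (columns left out: 0). No source used here gives the background method, spot flags or a genome build, and the number of arrays limits the precision. The study's methods name an RNeasy kit and Cy5, the labels Trizol with columns and Cy3.

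Of 62976 features, 43941 had 1 gene symbol and 19035 had none and were left out. Symbols were updated through a RefSeq gene table of GRCm38.p6, which changed no member's symbol. TG was tested against WT by lmFit, contrasts.fit and eBayes of limma (version 3.58.1, under R 4.3.3) on means of the 4 groups, over all mice, in each sex and for the difference between the sexes, and p-values were adjusted over all 24306 genes or 43941 features. The test was tried on simulated data. Members, lists and the choice of mice left out together were made with earlier results of these data known.

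Values are given for members called in any comparison, members whose genotypes do not overlap, members with a called feature that does not stand for the gene, the 4 TIMPs, Mmp2, Mmp9, Mmp12 and Mmp14; up to 4 called genes of each related list are named. Lists of cell type markers and of sex-linked genes were counted in the same way. Alternatives were a model without sex, replicate number as a block, other features, filters on dim genes, other normalizations, robust or trended eBayes, array weights, the exact Wilcoxon test, other thresholds, each sex alone, and mice left out. Promoter windows came from RefSeq; a genome and protein sequences were not used here. Python 3.11.15 with matplotlib 3.10.9 drew the figures.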

Additional observations from a re-analysis of the deposited data

How the results depend on the processing

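The 6 calls over all mice were 3 at an adjusted p under 0.01 and 3 with a 2-fold minimum, and 3 to 8 when each mouse was left out. The 5 calls in females became 8 with the milder filter on dim genes, 9 after centring each array on its median, 2 with females fitted alone, 3 without the 3 arrays that stood apart, 1 without TG female replicates 1 and 4, 2 at an adjusted p under 0.01, 9 at one under 0.10, 2 with a 2-fold minimum, and 3 to 7 when each mouse was left out. The single call in males and the count of 0 for the difference between the sexes were the same under every alternative run. Median centring moved the log2 fold change by 0.0993 over all mice and 0.12 in females.

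Timp2 reversed on its second feature (-0.19) and Timp4 on its dimmest (0.20). Timp3, at -0.03, was 0.0939 with the mean of all features, 0.46 on its second feature, 0.0681 after median centring, 0.0319 without TG female replicates 1 and 4, and -0.13 to 0.0851 when each mouse was left out. Mmp2, Mmp8, Mmp9, Mmp10, Mmp12, Mmp14, Timp1, Adamts1, Adamts14 and Adamts15, run under the same alternatives in the comparison each was named for, kept their sign. Members not run under them can change sign with the feature, as Adamts4, Adamts9 and Adamts17 did. The cause was not tested. Mmp10 gave no value under the stricter filter on dim genes, which leaves it out.

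With the replicate number as a block, 5 members were called over all mice, all among the 6, with the call of Adamts1 lost (adjusted p = 0.0540), and within sex 5, of which 4 were among the 6. In females 5, in males 1 and in the difference between the sexes 0 were called with this block. Same-numbered mice of different groups deviated together with r of -0.106 to 0.172 (median 0.00873, 24 pairs). The median of the other pairs was -0.0106. Of 48 best matches looked for, 17 carried the mouse's own number. Such weak correlations cannot tell whether same-numbered mice shared a batch.

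The arrays give no signal over background, so whether a dim member is expressed can be judged only against genes of the Y chromosome in females. Of these, Uty reached 4.09 and Eif2s3y 6.17. Under the higher mark lay also the means of Mmp9 in TG lungs (5.30) and of Mmp14 in WT lungs (6.06). Timp2 lies near the top of the scale.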
